A study of Oryza sativa Japonica Group with 8 samples.

Results

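Flower buds of cultivated rice (Oryza sativa, subspecies japonica) were compared with roots taken before flowering, a comparison of the organ that makes pollen and ovules with the organ that takes up water and minerals. The comparison rests on 1 poly(A) RNA library of flower buds and 1 of roots, out of 8 libraries in the series. The other 6 came from open flowers, from flag leaves after and before flowering, from mature seeds and milk grains, and from material labelled roots after flowering. No genotype other than the subspecies and no treatment is given. All plants stood in a greenhouse. The root library pooled stages between panicle initiation and the day before flowering, so it is an average over time, and the buds were collected at some point before flowering. Of the 31187 loci in the deposited table, 17531 (56.2%) had at least 5 FPKM (fragments per kilobase of transcript, adjusted for the total of mapped fragments) in the higher of the buds and roots, and these are the loci compared. The other 13656 were lower in both. The last locus inside this limit had 5.0004 FPKM and the first outside it 4.9986 FPKM.

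A rice floret holds stamens and a pistil inside green, leaf-like bracts, so a bud library mixes reproductive tissue, in which meiosis and pollen formation take place, with photosynthetic tissue. Roots lack photosynthesis and are known for membrane transporters, for cell wall remodelling at the growing tip and for enzymes that handle oxygen radicals and soil microbes. Genes of such organ-restricted functions often lie side by side as tandem copies in plant genomes. The table names loci by assembly identifier and position only, and pairs none with a gene name, exon or UTR. The marker genes of pollen, bracts or root tissues could therefore not be looked up, and the organ labels were not checked against them. Positions follow MSU Release 7, the rice genome annotation named in the file header.

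With 1 library per group there is no replicate error and no p-value, and every difference is between these libraries. A locus was called different when log2((FPKM + 1)/(FPKM + 1)), buds over roots, reached 2 in either direction, a 4-fold difference. By this rule 2851 of 17531 loci (16.3%) were higher in flower buds and 2338 (13.3%) were higher in roots, 29.6% in all. In bulk libraries, fewer cells of a type and less RNA per cell cannot be told apart. The same rule called 23.2% of 17210 loci between flower buds and leaves before flowering, and 31.0% of 16467 loci between those leaves and roots, comparisons that share a library with this one. The calls nearest the limit had log2 ratios of 2.0001 and -2.0002. Of the called loci, 372 of those higher in buds also reached 5 FPKM in roots, and 541 of those higher in roots also did so in buds. The others passed the 5 FPKM limit through the library in which they were high.

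**Figure D1:**
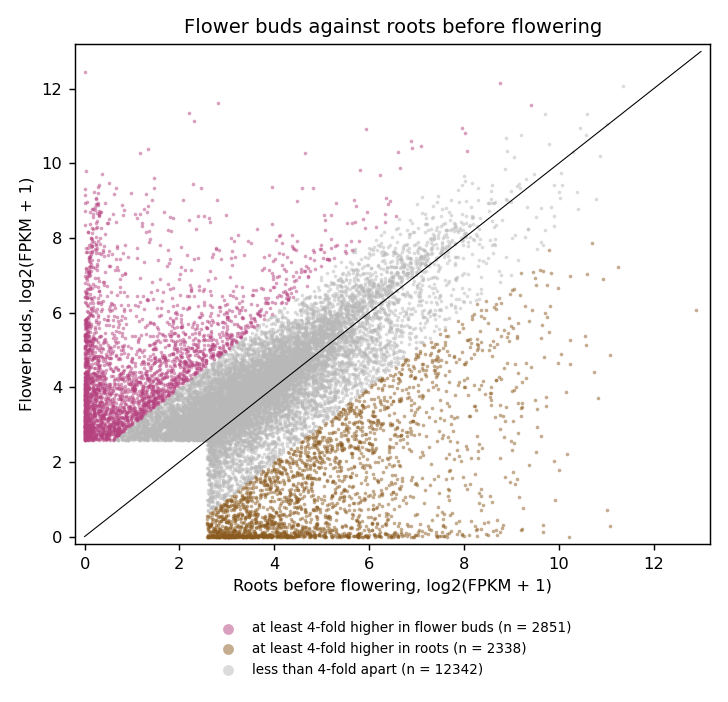
Levels of the 17531 compared loci, log2(FPKM + 1), with roots before flowering on the horizontal and flower buds on the vertical axis; each point is a locus and the line marks equal levels. The 2851 loci higher in buds and the 2338 higher in roots both reach from the 5 FPKM limit to over 1000 FPKM, and many of them lie close to 0 in the other library.

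Which side held more calls changed with the scaling. Over all compared loci the median log2 ratio was 0.39 as deposited, with a median level of 12.3 FPKM in buds and 9.86 FPKM in roots, and buds held 54.9% of the calls. Median-of-ratios scaling, over the 13228 loci that reached 1 FPKM in all 8 libraries, shifted the median ratio by -0.39 to -0.0021, and then 2346 loci were higher in buds and 2788 in roots, so that buds held 45.7%. Statements on the balance of directions are therefore relative to this shift.

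Shared expression was the larger class. In 10129 loci (57.8%) both buds and roots reached 5 FPKM, and 8553 loci (48.8%) were within 2-fold. Only loci that share their position with no other were considered for naming. Among these, the most abundant locus within 1.2-fold lay on chromosome 5 (2088969 to 2092342), with 2146 FPKM in buds and 2077 FPKM in roots. The next lay on chromosome 7 (20733145 to 20735347), with 1730.9 FPKM in buds and 1534 FPKM in roots. The first of these had 951 FPKM in the later and 234 FPKM in the earlier leaf library, 853 in mature seeds and 189.8 in milk grains, so it was even between buds and roots but not across organs. The second had between 1189.8 and 1554 FPKM in leaves, mature seeds and flowers and was listed at 0 in milk grains.

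The differences ranged over several orders of magnitude. At least 16-fold separated the libraries at 743 loci higher in buds and 744 higher in roots, and at least 64-fold at 228 and 173 loci. At least 256-fold was reached by 55 loci in the bud direction and 27 in the root direction. Of the called loci, 139 of those higher in buds were listed at 0 in roots and 142 of those higher in roots were listed at 0 in buds. No fold is given for these. The most abundant of them had 5548 FPKM in buds and was also listed at 0 in leaves after flowering, although leaves sampled earlier had 4494 FPKM. Its span on chromosome 12 held 40 loci in all, and a listed 0 may be a failed estimate. Without loci listed at 0, 2712 were higher in buds and 2196 in roots.

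The extremes of the comparison are named as those with a position of their own, at least 50 FPKM and a value above 0 in both, of which there were 2537. The highest ratio belonged to XLOC_005187 on chromosome 1 (23291658 to 23292667), with 895 FPKM in buds and 0.0279 FPKM in roots, a log2 ratio of 9.77. In the other libraries this locus had 400.0 FPKM in flowers, 0.0437 in leaves after and 0.0186 in leaves before flowering, 21.7 in mature seeds, 3.61 in milk grains and 0.112 in the material labelled roots after flowering. It was thus high in both flower libraries, low but present in seeds and near 0 in the vegetative libraries. The next was XLOC_066147 on chromosome 9 (14258394 to 14259205), with 833 FPKM in buds and 0.282 FPKM in roots, a log2 ratio of 9.35. It had 560.1 FPKM in flowers and 2.21 FPKM in milk grains, and at most 0.349 FPKM in every other library.

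At the other end, XLOC_066173 had 0.214 FPKM in buds and 2170.0 FPKM in roots, a log2 ratio of -10.80. It lies on chromosome 9 (14479022 to 14479844), 134 kb beyond the end of the run of bud loci that holds XLOC_066147. Elsewhere it had 6.54 FPKM in milk grains, 1.32 in the material labelled roots after flowering and at most 0.711 in the rest. XLOC_026511 on chromosome 2 (22509601 to 22510611) had 0.647 FPKM in buds and 2082 FPKM in roots, a log2 ratio of -10.30, and 10.4 FPKM in milk grains. A locus 18.5 kb further along chromosome 2 (22529078 to 22531434) had 0.248 FPKM in buds and 808 FPKM in roots, and 2.88 FPKM in milk grains. All 3 root loci had their highest value outside roots in milk grains.

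Levels in the other libraries were not used to choose the loci and show where else they were expressed. Loci higher in buds had a median of 18.4 FPKM in buds and 0.626 FPKM in roots. Their median was 18.1 FPKM in open flowers, 1.24 in leaves after and 1.82 in leaves before flowering, 4.40 in mature seeds and 0.835 in milk grains. Of the 2851, 2546 (89.3%) reached 5 FPKM in open flowers, against 93.0% of the 14921 loci that reached 5 FPKM in buds. Open flowers were within 2-fold of buds at 2251 (79.0%), against 92.3% of those 14921. At 41 of the 2851 open flowers were at least 4-fold lower than buds, against 70 of the 14921.

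Loci higher in roots had a median of 1.008 FPKM in buds and 28.9 FPKM in roots, so the calls on the root side were at a higher level. Their median was 3.15 FPKM in leaves after and 2.02 in leaves before flowering, 1.30 in mature seeds and 0.578 in milk grains. No other library was close to roots for these loci. The library labelled roots after flowering had a median of 2.84 FPKM. It was within 2-fold of roots before flowering at 340 of the 2338 loci (14.5%), against 55.9% of the 12739 loci that reached 5 FPKM in roots. For leaves after flowering these shares were 14.7% and 56.1%. The 2338 loci were chosen by their high root value, so the low shares follow in part from the choice. The library labelled roots after flowering was within 2-fold of leaves after flowering at 2230 of the 2338 loci (95.4%). This library is therefore kept apart below, and no statement on roots rests on it.

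**Figure D2:**
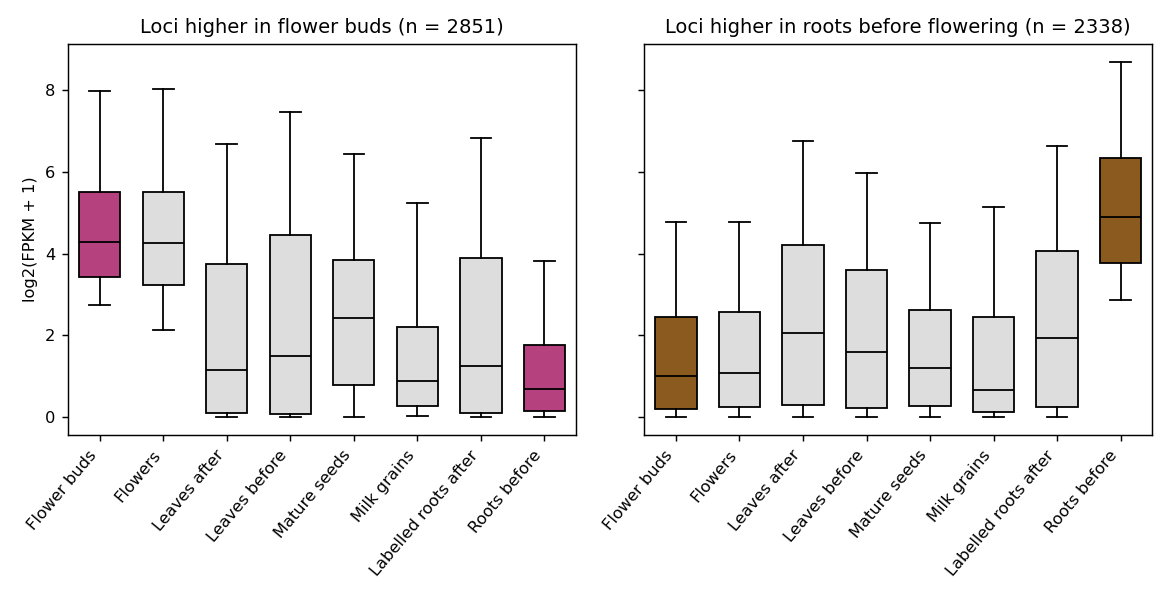
Levels, log2(FPKM + 1), of the loci at least 4-fold higher in flower buds (left) and in roots before flowering (right) in all 8 libraries; boxes span the quartiles with the median, whiskers the 5th to 95th percentile over loci, and coloured boxes are the libraries used for the choice. For loci higher in buds, open flowers lie at the level of buds (medians 18.1 and 18.4 FPKM), while for loci higher in roots no other library has a median above 3.15 FPKM.

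Each direction was divided by whether a locus also reached 5 FPKM in leaves, in seeds or in neither. Among loci higher in buds, 1225 (43.0%) reached 5 FPKM in leaves, 526 (18.4%) in seeds but not in leaves, and 1100 (38.6%) in neither. Over the 14921 bud-expressed loci, those that reached 5 FPKM in buds, these shares were 77.7%, 10.7% and 11.6%. Among loci higher in roots, 1100 (47.0%) reached 5 FPKM in leaves, 193 (8.25%) in seeds but not in leaves, 39 (1.67%) in a flower library only, and 1006 (43.0%) in none. Over the 12739 root-expressed loci, chosen likewise, the shares were 80.7%, 7.34%, 2.15% and 9.84%. In both directions the share with leaves was lower, and the share with neither leaves nor seeds higher, than over all loci of that organ. The classes differ between directions. The bud class of neither leaf nor seed had no 5 FPKM limit in roots, but the 4-fold rule itself keeps roots below buds. In roots 13 of its 1100 loci reached 5 FPKM. The last root class was also limited to below 5 FPKM in buds and flowers. A called root locus is by rule low in buds, so the choice itself raises that share, and its contrast with all root-expressed loci is in part fixed.

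**Figure D3:**
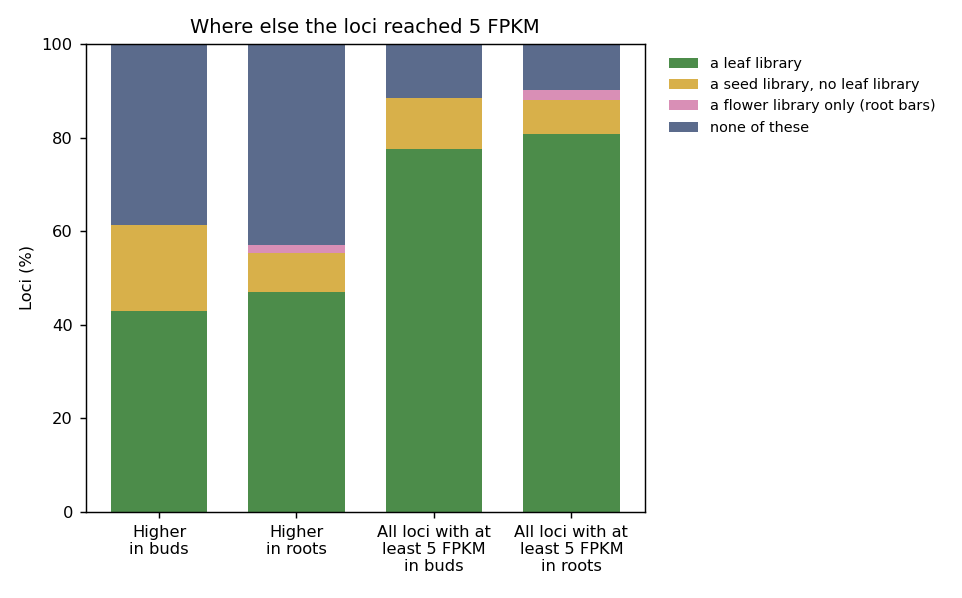
Share of loci (%) that reached 5 FPKM in another organ, for loci higher in flower buds, loci higher in roots, the 14921 bud-expressed and the 12739 root-expressed loci (5 FPKM or more in that library); root bars have a further class for flower libraries. The top segment is 38.6% of loci higher in buds (neither leaf nor seed) and 43.0% of those higher in roots (no leaf, seed or flower library), against 11.6% of bud-expressed and 9.84% of root-expressed loci.

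The 1225 bud loci shared with leaves had a median of 23.9 FPKM in buds and 1.55 FPKM in roots, with 15.99 FPKM in leaves after and 28.7 FPKM in leaves before flowering. The leaf levels follow in part from the choice of the class, which took 16.9% of the summed FPKM of buds and 1.32% of that of roots. Its most abundant locus by the naming rule, on chromosome 5 (605594 to 606871), had 4567 FPKM in buds and 433 FPKM in roots, but only 139 FPKM in leaves after and 51.3 FPKM in leaves before flowering, with 2214 FPKM in mature seeds. The next, on chromosome 2 (1116058 to 1117136), had 3037 FPKM in buds and 677 FPKM in roots, with 1856 and 1852 FPKM in leaves after and before flowering. The class thus held loci centred on flower and seed beside loci of high level in all 8 libraries.

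The 526 bud loci shared with seeds but not leaves had a median of 20.1 FPKM in buds, 1.10 in roots, 11.1 in mature seeds and 1.94 in milk grains. A locus on chromosome 7 (20724562 to 20726098) had 1976 FPKM in buds and 249 FPKM in roots, 495 FPKM in mature seeds and 286 FPKM in milk grains, and was listed at 0 in both leaf libraries. These listed values may be failed estimates, so its place in this class is uncertain. Another on chromosome 1 (8203764 to 8206969) had 1951 FPKM in buds and 60.5 FPKM in roots, 876 FPKM in flowers, 138 FPKM in mature seeds and 1.65 FPKM in milk grains. The median of the class and both examples were higher in mature seeds than in milk grains.

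The 1100 bud loci seen in neither leaf nor seed had a median of 13.04 FPKM in buds and 0.137 FPKM in roots. Of these, 880 (80.0%) reached 5 FPKM in open flowers, against 93.0% of bud-expressed loci. In this class 127 loci had at least 100 FPKM in buds, and the class took 9.30% of the summed FPKM of buds against 0.113% in roots. Its 2 most abundant loci with a position of their own and a value above 0 in roots both belong to the run on chromosome 9 described below. Besides XLOC_066147 this was the locus at 14280453 to 14281362, with 686 FPKM in buds and 0.238 FPKM in roots.

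The 1100 root loci shared with leaves had a median of 3.96 FPKM in buds and 56.6 FPKM in roots, with 19.5 FPKM in leaves after and 12.6 FPKM in leaves before flowering. This class took 1.97% of the summed FPKM of buds and 28.9% of that of roots, and 367 of its loci had at least 100 FPKM. The locus with the highest level of the root library lay on chromosome 1 (4646426 to 4648260), with 66.0 FPKM in buds and 7605 FPKM in roots, 164 and 259 FPKM in leaves after and before flowering and 48.9 FPKM in mature seeds. A locus on chromosome 4 (35000968 to 35002146) had 149 FPKM in buds and 2444 FPKM in roots, and between 18.8 and 138 FPKM in the other libraries. Both were present in every organ and raised in roots.

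The 1006 root loci below 5 FPKM in leaf, seed and flower libraries had a median of 0.171 FPKM in buds and 15.6 FPKM in roots, and 71 of them had at least 100 FPKM. They took 0.0943% of the summed FPKM of buds and 6.35% of that of roots. The 2 most abundant by the naming rule were the locus of chromosome 2 at 22529078 to 22531434 given above and a locus on chromosome 9 (22699919 to 22700959), with 0.131 FPKM in buds and 591 FPKM in roots. In the material labelled roots after flowering these 2 had 0.156 and 0.109 FPKM. There 14 of the 1006 loci (1.39%) reached 5 FPKM, against 76.3% of root-expressed loci. That library was close to leaves after flowering, where the class is below 5 FPKM by choice, so the low share is largely fixed.

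Called loci of the 2 directions leaned to different stages of the leaf. Among the 2338 loci higher in roots, leaves after flowering were at least 4-fold above leaves before flowering at 219 (9.37%) and at least 4-fold below at 56 (2.40%). Among the 12739 root-expressed loci these shares were 2.58% and 1.32%. Among the 2851 loci higher in buds, leaves after flowering were at least 4-fold above at 22 (0.772%) and below at 122 (4.28%), against 0.932% and 1.84% of bud-expressed loci. So root loci that differed between the leaf libraries were mostly higher in the later leaf and bud loci mostly in the earlier leaf. The order was the same after each of 3 scalings, with 203 to 217 later-higher root loci and 58 to 68 earlier-higher ones, and 16 to 19 and 113 to 129 for bud loci. In the seed, mature seeds were at least 4-fold above milk grains at 763 bud loci (26.8%) and below at 87 (3.05%), against 14.97% and 2.94% of bud-expressed loci. Mature seeds were at least 4-fold above milk grains at 183 root loci (7.83%) and below at 142 (6.07%), against 12.4% and 3.42% of root-expressed loci. After median-of-ratios scaling these were 199 (7.14%) and 223 (7.999%), against 10.4% and 5.02%, and after upper-quartile scaling 176 and 233. Relative to all loci of their organ, bud loci were thus more often and root loci less often higher in mature seeds. These shares count all loci of a group, also those low in both seed libraries, so they do not compare loci expressed in seeds. Of root loci 34.4% reached 5 FPKM in a seed library, against 79.1% of root-expressed loci. Of bud loci 50.3% did so, against 80.3% of bud-expressed loci. The leaf and seed libraries also number 1 per stage.

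A small number of loci held much of the summed level. The 159 most abundant root loci held 50% of the summed FPKM of all loci higher in roots, and 149 loci did so for buds. Of the 100 most abundant loci of the bud library, 52 were at least 4-fold higher in buds, none was higher in roots and 48 were not called. They took 17.8% of the summed FPKM in buds and 6.57% in roots. These loci were picked by the bud values that also make the call, so their direction is largely, though not wholly, fixed by the choice, and the same holds for roots. Of the 100 most abundant loci of the root library, 1 was higher in buds and 65 were higher in roots. They took 6.47% of the summed FPKM in buds and 18.7% in roots, and 21 loci were among the top 100 of both. Over all compared loci 16.3% were higher in buds and 13.3% in roots.

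Called loci were more frequent at high levels and among short loci. Between 5 and 20 FPKM in the higher library, 15.2% of 9890 loci were higher in buds and 9.16% in roots. At 100 to 1000 FPKM these shares were 22.5% and 29.3% of 1547 loci, and at 1000 FPKM or more 17 and 22 of 59. Part of this slope is built in, since adding 1 FPKM shrinks the ratio of low loci. Loci with a position of their own had a median span of 2612 bp when higher in buds, 2214 bp when higher in roots and 4123 bp when not called. Below 1000 bp, 35.3% of 757 loci were higher in buds and 28.5% in roots, and at 6000 bp or more 11.1% and 7.56% of 2644 loci. Within the loci of 20 to 100 FPKM the shortest class was also called most often: 31.0% and 31.7% of 252 loci below 1000 bp were called in the bud and root direction, against 11.6% and 9.20% of 1903 loci of 3000 to 6000 bp and 12.4% and 11.1% of 838 loci of 6000 bp or more, so the shares did not fall further in the longest class. A span includes introns, so it is not the transcript length that FPKM divides by.

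**Figure D4:**
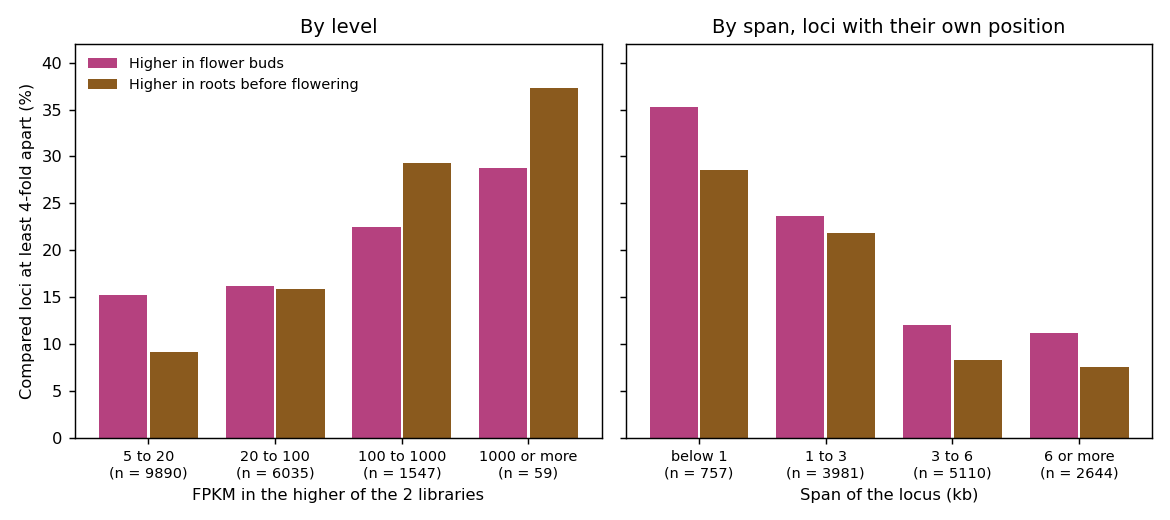
Share of compared loci (%) at least 4-fold higher in flower buds and in roots before flowering, by FPKM in the higher library (left) and by span for loci with their own position (right). From the lowest to the highest level the root share goes from 9.16% to 37.3%, and both shares fall with span, to 11.1% for buds and 7.56% for roots.

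Loci called in the same direction adjoined each other somewhat more often than the share of all loci, although most had no like neighbour. Along the 12 chromosomes, 20859 loci with a position of their own formed 20847 adjacent pairs. Loci that share a position were left out first, so loci called adjacent, here and in the runs, may have others between them. The next locus after a bud-higher locus was also higher in buds in 13.6% of cases, against 10.1% of all these loci. The next locus after a root-higher locus was also higher in roots in 16.1% of cases, against 8.18% of all. A bud-higher locus was followed by a root-higher one in 7.49% of cases, and a root-higher locus by a bud-higher one in 7.86%. In all, 286 pairs were higher in buds, 274 were higher in roots and 292 were opposite. The balance of pairs turned to 225 in buds and 346 in roots after median-of-ratios scaling, to 243 and 308 after upper-quartile scaling and to 266 and 269 with equal sums. Runs of 3 or more neighbours held 157 bud loci in 42 runs and 155 root loci in 42 runs, while 1611 bud loci and 1229 root loci had no like neighbour. Without the 4 longest runs, an alternative added after the data were seen, the shares were 12.7% for buds against 10.02% of all, and 15.3% for roots against 8.11% of all.

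The longest run of bud loci lay on chromosome 9 (14251018 to 14344912) and held 16 loci in 93.9 kb. Its first locus had 37.3 FPKM in buds and 5.37 FPKM in roots and was also expressed in leaves and seeds. The other 15 had 64.7 to 833 FPKM in buds and 0.0350 to 0.282 FPKM in roots, and together took 1.09% of the summed FPKM of buds. In open flowers these 15 had 47.4 to 560.1 FPKM and in milk grains 0.175 to 2.21 FPKM. Their levels kept a near-constant proportion between buds, flowers and milk grains, although the milk grain levels were themselves low. The proportion varied more between buds and roots or leaves, where the levels were lower still. The ratio of buds to flowers lay between 1.363 and 1.503 at all 15, and the ratio of buds to milk grains between 310.04 and 376, whereas over all 2844 bud-higher loci with a value in flowers the quartiles of the bud to flower ratio were 0.760 and 1.64. The ratio of buds to roots ranged from 1845 to 4982 over the 15 loci, that of buds to leaves after flowering from 504 to 2990 and that of buds to leaves before flowering from 873 to 27737. Whether fragments were divided among similar copies was not tested, since no sequence of this build was at hand, so the 15 values may not be separate measurements.

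A second bud run on chromosome 6 (27303495 to 27334067) held 8 loci in 30.6 kb, with 11.7 to 261 FPKM in buds and 0.0156 to 0.382 FPKM in roots. Its ratio of buds to flowers ranged from 0.825 to 1.60, so these loci did not keep a fixed proportion between the flower libraries. No locus of the run exceeded 0.618 FPKM in the later leaf library, 0.582 FPKM in the earlier one or 3.34 in milk grains.

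The longest run of root loci lay on chromosome 7 (1319030 to 1438551) and held 10 loci in 119.5 kb. They had 0.00774 to 0.478 FPKM in buds and 6.80 to 303 FPKM in roots, and none exceeded 1.14 FPKM in any other library. Levels in roots fell into a high and a low class along the run, with 3 loci at 152 FPKM or more and 7 at 17.5 FPKM or less.

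A run of 8 root loci on chromosome 8 (5228821 to 5265389) had 0.0265 to 21.1 FPKM in buds and 14.5 to 199.5 FPKM in roots. Only the locus with 21.1 FPKM, which had 166 FPKM in roots, exceeded 0.133 FPKM in buds. In leaves after flowering 5 of the 8 loci had at least 5 FPKM, up to 22.3 FPKM, while in leaves before flowering none exceeded 0.576 FPKM. The run on chromosome 7 showed no such difference, with at most 0.0498 FPKM in the later and 0.0621 FPKM in the earlier leaf library. Whether its loci share fragments was likewise not tested.

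**Figure D5:**
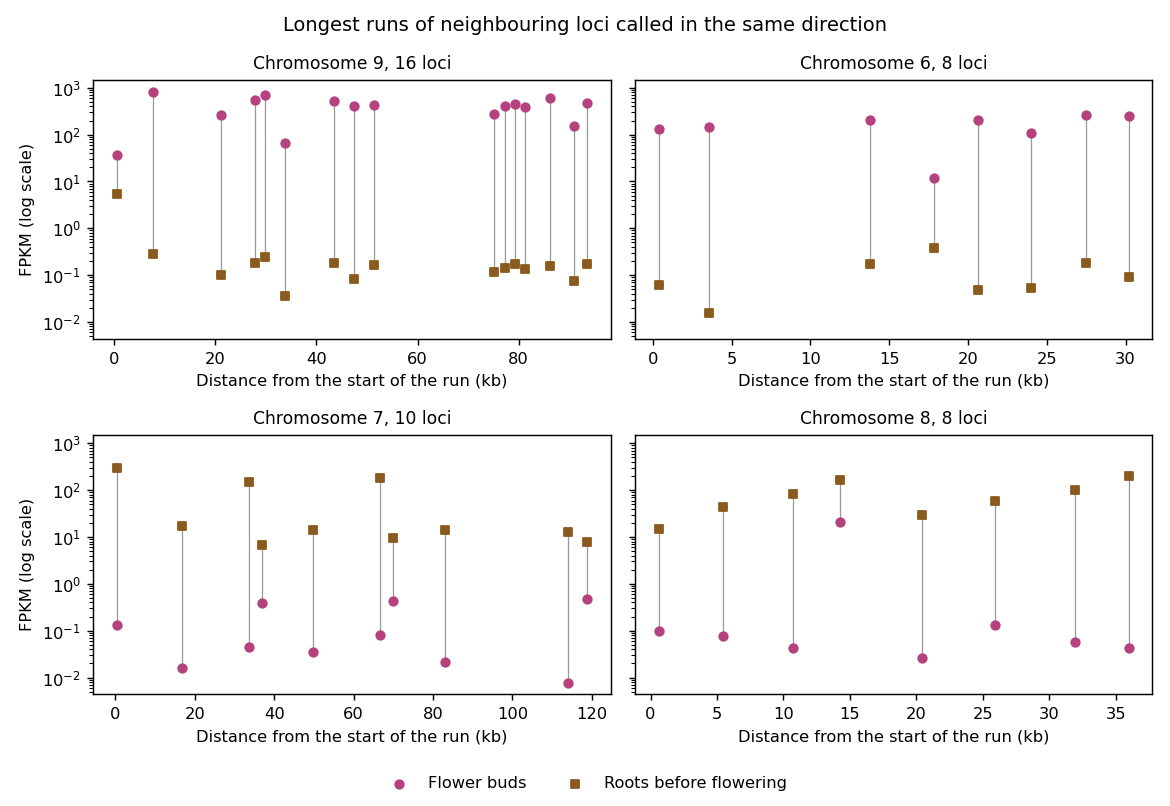
FPKM (log scale) in flower buds (circles) and roots before flowering (squares) for the loci of the 4 longest runs of neighbours called in the same direction, against distance from the start of the run in kb. In the runs on chromosomes 9 and 6 buds lie above roots at every locus, and in those on chromosomes 7 and 8 roots lie above buds at every locus.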

How the data were processed

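Non-directional paired-end sequencing of poly(A) RNA ran for 100 cycles, per the labels' protocols, so overlapping loci of opposite strand were not separated. The authors deposited 1 FPKM value per locus and library. The submitters' processing notes name TopHat, Cufflinks and Cuffdiff, without versions or settings. The read depth is unknown, so no counting interval is given. The summed FPKM was 597892 in buds and 577164 in roots. None of the identifiers (0) could be matched to RefSeq's gene list, which is on another assembly. Of the loci, 10295 share a position with others and were left out of statements on span and neighbours.

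From these values log2 ratios with a pseudocount of 1 FPKM were computed in Python 3.11.15 with pandas 2.3.3, and the limits were 5 FPKM and 4-fold. "Expressed elsewhere" means at least 5 FPKM. In simulated data built from the bud library, with an assumed noise SD of 0.3 on the log2 scale, the rule found 50 of 50 loci planted 8-fold higher in each direction and called 10 of 100 planted 3-fold. All planted loci were taken well above the 5 FPKM limit in buds, so these counts do not describe calls near that limit. Loci were named by rule among those with a position of their own: by identifier the 2 highest and 2 lowest ratios, and by position the 2 most abundant of each class with at least 50 FPKM and a value above 0 in both libraries. The longest run of neighbours in each direction was described by rule, and the other runs after their values were seen. The comparison, classes and rules were chosen with earlier results of these data known. Other pseudocounts, filters, folds and scalings were tried.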

Additional observations from a re-analysis of the deposited data

How the results depend on the processing

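No paired analysis was possible because each group held 1 library, and for the same reason no library could be left out. Counts of called loci and pairs moved by over 1.5 times where the limits themselves were changed. With a pseudocount of 5 FPKM, 1218 loci were higher in buds and 1325 in roots, with 541 bud loci shared with leaves, 432 bud loci in neither leaf nor seed and 445 root loci in no leaf, seed or flower library, and 98 bud and 115 root pairs. With a limit of 20 FPKM the counts were 1343 and 1432, with 684 bud loci shared with leaves, 393 and 410 in these last classes, and 100 and 115 pairs. At 2-fold they were 5449 and 3529, with 3083 and 1970 shared with leaves and 851 and 476 pairs. At 8-fold they were 1480 and 1422, with 529 and 617 shared with leaves, 681 bud loci in neither leaf nor seed, and 123 and 152 pairs. When 1 FPKM counted as expressed elsewhere, 584 bud loci were in neither leaf nor seed and 512 root loci in no leaf, seed or flower library. The other 75 of 104 alternative counts stayed within 1.5 times, including all those under the 3 scalings, without loci listed at 0 and for loci with a position of their own. The median log2 ratio changed sign, to -0.0021, after median-of-ratios scaling and was 0.15 after upper-quartile scaling. The side with more calls changed under both of these scalings, at a pseudocount of 5 FPKM and at 20 FPKM.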

Other observations

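Across the 12 chromosomes the share of compared loci higher in buds ran from 13.9% of 2516 on chromosome 1 to 20.5% of 949 on chromosome 12, with 19.98% of 896 on chromosome 11. The share higher in roots ran from 11.5% of 2339 on chromosome 3 to 16.6% on chromosome 11, with 16.5% of 893 on chromosome 10. Off the 12 chromosomes, 7 of 16 compared loci were higher in buds and 0 in roots.

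Further runs of neighbours differed in where else they were expressed. A run of 7 bud loci on chromosome 12 (13094712 to 13179007) had 5.93 to 441 FPKM in buds and at most 15.7 FPKM in roots. Its leaf levels reached 1023 FPKM after and 2066 FPKM before flowering, above its highest level in buds. A run of 6 bud loci on chromosome 11 (4634033 to 4694413) had 11.3 to 136 FPKM in buds and at most 0.0534 FPKM in roots, with at most 0.112 FPKM in leaves after and 0.0512 in leaves before flowering. A run of 5 bud loci on the same chromosome (693339 to 737188) had 8.76 to 1235 FPKM in buds and 0.184 to 21.1 FPKM in roots, and its leaf levels reached 568 FPKM after and 389 FPKM before flowering. The second locus of this run had 61.5 FPKM in buds but 1210 FPKM in milk grains and 420 FPKM in mature seeds. Its other loci had at most 15.9 FPKM in milk grains. A run of 5 root loci on chromosome 10 (16607803 to 16635314) had at most 0.00630 FPKM in buds and 6.78 to 182 FPKM in roots. In milk grains the 5 loci had 0.162 to 2.15 FPKM, all below the 5 FPKM limit. They were also above 0 in the material labelled roots after flowering, at 0.00923 to 0.0831 FPKM.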
